A study of Mus musculus with 8 samples.

Results

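Gm and Rik genes are mouse genes that still carry a provisional name. A Gm number marks a gene model predicted from the genome, and a name ending in Rik marks a gene first seen as a RIKEN cDNA clone. Both kinds were taken from a table of read counts made by RNA sequencing of the cell line RAW264.7, which grows from a mouse tumour and resembles macrophages. The genes were chosen by name and selected on their summed raw count, which had to reach 1000 over all 8 libraries; Gm12250, which held 1 count in all, was left out by name. Of 42454 rows, 12579 carried such a name, 3584 of these held at least 1 count, and 80 met the rule. They comprise 22 Gm genes and 58 Rik genes. Because the summed count chose them, their abundance is a description and is not tested.

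The libraries fall into 4 labelled groups of 2, described here as the labels give them. Cells of the group mock received the solvent DMSO alone, and TubB received Tubuloside B, a phenylethanoid glycoside of plant origin. LPS_IFNg received lipopolysaccharide (LPS, a bacterial cell wall component) at 10 ng/ml with interferon-gamma (IFN-γ) at 20 ng/ml for 24 h, and LPS_IFNg_TubB received these with Tubuloside B. The dose of Tubuloside B is not given in the sources used here. All groups share the same cell line, so they speak for one tumour-derived line and not for primary macrophages. Whether the replicates are separate cultures is not stated, and p-values then cover no more than the spread between these libraries, which may be technical.

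A provisional name says little about the gene behind it. Some Rik genes encode conserved proteins whose human counterparts have names of their own. Others are long noncoding RNAs, which are transcribed without encoding a known protein. Still others are processed copies, made when a messenger RNA is reverse transcribed and inserted elsewhere in the genome; such a copy lacks the introns of its parent and can be so like it that short reads cannot be assigned. In macrophages, LPS acts through Toll-like receptors and NF-kappaB, and IFN-γ through its own receptor, and both pathways switch on coding and noncoding genes.

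Library totals ranged from 4767894 to 8413834 counts. The activation markers went against the labels: Nos2, the inducible nitric oxide synthase, had between 155 and 199 CPM (counts scaled to library size) in the libraries labelled mock and LPS_IFNg and between 5762 and 7429 CPM in those labelled TubB and LPS_IFNg_TubB. Gbp2, an interferon-induced GTPase, lay at or below 0.823 CPM in the first 4 libraries and at or above 1332 CPM in the others. Groups are therefore named as the libraries labelled so, and a direction given here is a direction between labels. If the labels TubB and LPS_IFNg were exchanged, what is called the compound label here would be the stimulus and what is called the stimulus label would be the compound; whether they were was not tested. Macrophage markers summed to between 6348 and 6783 CPM, with 7 of 8 markers detected and Mertk at 0. Markers of T cells, B cells, epithelium, fibroblasts, endothelium and neutrophils summed to at most 2.93 CPM each, and T cell markers were at 0 in all libraries. The activation markers move with every difference across the compound label given here, and their part in it was not tested. In bulk samples, fewer cells expressing a gene and less RNA of it per cell cannot be told apart. CPM values are scaled by edgeR's TMM factors.

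The 80 genes took between 0.871 and 0.938% of all counts in the libraries labelled mock and LPS_IFNg and between 0.686 and 0.734% in those labelled TubB and LPS_IFNg_TubB. One gene, Gm46620, held between 28.3 and 39.9% of the counts of the 80 genes. Without it the shares were between 0.546 and 0.564% and between 0.491 and 0.505%. Matching to RefSeq of the same assembly found 77 genes, 72 by symbol and 5 by an older name. RefSeq types 56 of them as protein coding, 14 as long noncoding RNA, 6 as transcribed pseudogenes and 1, Gm8995, as other RNA. The 80 genes lie on 20 chromosomes. Their exons span a median of 3450 bases, from 524 (Gm12191) to 16226 (4932438A13Rik), and 9 have a single exon. Exons of 16 genes overlap those of another gene, in 4 of them over more than 10% of their length and at most over 25.0% (1700123O20Rik, with Acin1). The kit did not keep the strand, so reads in such overlaps cannot be told apart by strand.

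At the edge of the rule, 2410131K14Rik, now named Spring1 and known as a regulator of SREBP activation, entered with 1014 counts, followed by D230025D16Rik with 1046 and 1110059E24Rik with 1058. Just below it, Gm4951 had 973 counts, 4930589L23Rik 967 and 2610301B20Rik 960. A gene could also reach the sum through some libraries alone. The libraries labelled mock and LPS_IFNg gave only 2.81% of the counts of Gm8995 (85 of its 3022) and 6.91% of those of 6530402F18Rik (77 of 1114). Over the 80 genes this share had a median of 52.5% and ran up to 82.4%. Gm8995 and 6530402F18Rik passed because of the libraries in which they are high and therefore had to differ, so their inclusion is no result. Other named genes also drew most of their counts from one side, though less strongly. In mock and LPS_IFNg against the others, 5430427O19Rik held 380 and 939 counts and 1110038F14Rik 434 and 1121. Gm20559 held 509 and 1701 and Gm34181 434 and 951. 2900026A02Rik held 1448 and 310 and Gm26740 1008 and 256. Gm10825 held 1199 and 340, C130050O18Rik 1210 and 342 and 6430548M08Rik 1317 and 404. Gm41235 held 2056 and 688, 4933404O12Rik 1044 and 372 and 9430015G10Rik 965 and 414. The rule favours such genes, so their tests are partly shaped by it and their changes are best read as descriptions.

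Levels per kilobase of exon (RPKM, CPM divided by the exon length in kilobases) had a median of 13.1 over the 80 genes. Gm15772 was highest with a mean of 454 RPKM over the 8 libraries, followed by Gm46620 with 333, Gm41885 with 147 and Gm12191 with 92.3. The next were the coding genes 1110008P14Rik (90.4 RPKM), 1810037I17Rik (75.2 RPKM), 1110004F10Rik (72.7 RPKM) and 9530068E07Rik (65.7 RPKM), then Gm1821 (64.7 RPKM) and Gm42048 (61.3 RPKM). Gm15772, Gm12191 and Gm1821 are near-identical copies of named genes, described below. How reads were divided between copy and parent was not tested, so their levels may not be those of the copy alone. Gm26740 was lowest with 1.62 RPKM, with exons that add up to 15332 bases. Neighbours in this order often overlap: Gm12191 ranged from 81.7 to 104 RPKM over the libraries and 1110008P14Rik from 68.4 to 117 RPKM.

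**Figure D1:**
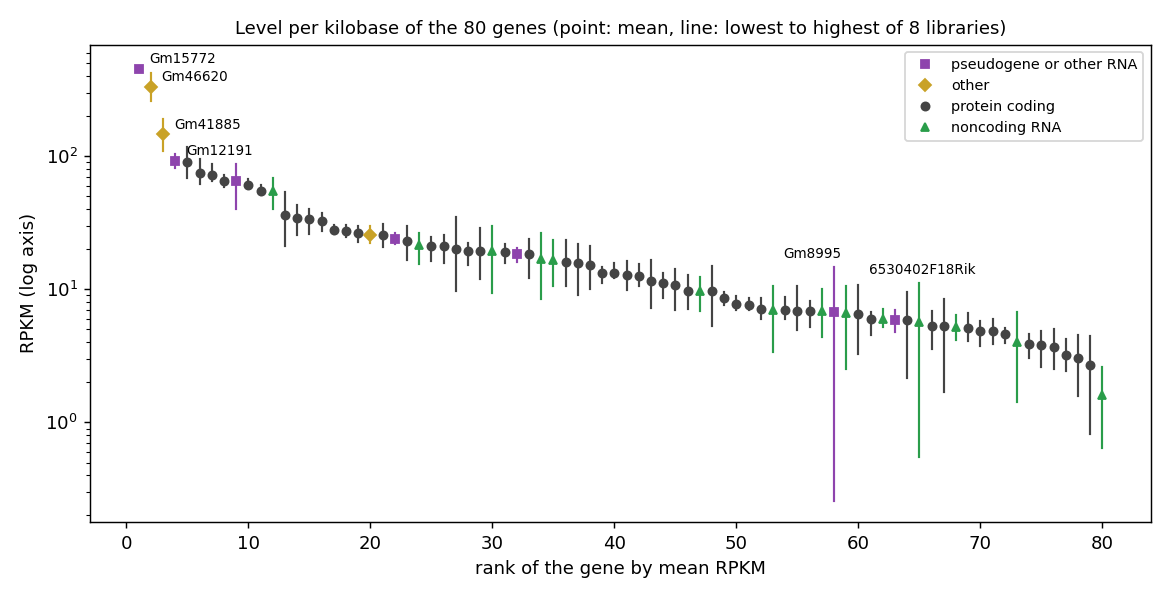
Mean RPKM (log axis) of the 80 genes in order of rank, with a line from the lowest to the highest of the 8 libraries; colours and shapes give the RefSeq type. Levels run from 454 RPKM (Gm15772) to 1.62 (Gm26740), and the widest lines belong to Gm8995 and 6530402F18Rik.

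The compound label was compared with its control without and with the stimulus label, in pairs of groups that share no library. Between TubB and mock, 26 of the 80 genes were higher and 22 lower (edgeR's quasi-likelihood test, Benjamini-Hochberg adjusted p under 0.05 over all 11081 genes tested), beside 26.3% higher and 24.9% lower of all genes tested. Among the 7009 other genes with a summed count of at least 1000, 31.3% were higher and 29.2% lower, against 32.5 and 27.5% of the 80, so the Gm and Rik genes changed about as often as other genes of that abundance. Between LPS_IFNg_TubB and LPS_IFNg, 29 were higher and 24 lower, beside 26.2 and 25.0% of all genes tested and 31.2 and 30.1% of the other genes of that abundance. All 80 genes passed the filter on low counts and were tested. Their median log2 change was 0.00 in the first comparison and 0.09 in the second, beside -0.01 and -0.01 over all genes tested.

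In both comparisons 26 genes were higher and 19 were lower; no gene was called in opposite directions, 3 were called only in the first and 8 only in the second. Calls in one comparison alone do not show that the effects differ. The gap between the log2 changes of a gene in the 2 comparisons had a median of 0.12 and was largest in 9930021J03Rik (KIAA2026 in the older naming of large human cDNAs), with 0.20 ± 0.15 (SE) against 0.80 ± 0.16. In that gene the interaction, which tests the difference itself, was 0.60 ± 0.22 with an unadjusted p of 0.0115 and did not pass after adjustment (edgeR). Changes of more than 2-fold were called for 8 genes upward and 8 downward in the first comparison and for 8 upward and 10 downward in the second. These counts include Gm8995 and 6530402F18Rik, which had to differ. Without them 24 of 78 genes were higher in the first comparison and 27 in the second, 6 of them by more than 2-fold in each. Less one-sided genes, such as Gm20559, 5430427O19Rik and Gm34181, remain in these counts. The share of all genes tested that changed by more than 2-fold was not counted.

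**Figure D2:**
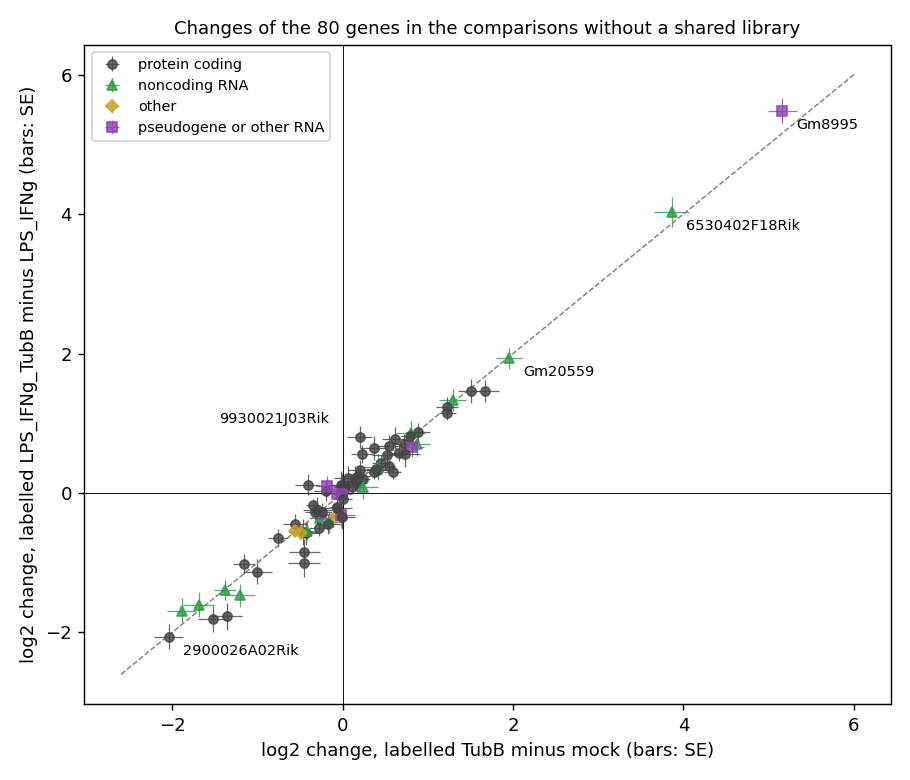
Log2 change of each of the 80 genes between the libraries labelled TubB and mock (x axis) and between those labelled LPS_IFNg_TubB and LPS_IFNg (y axis), with SE bars; the dashed line marks equal change. Gm8995 (5.16 and 5.48) and 6530402F18Rik (3.86 and 4.03) lie apart at the top, 2900026A02Rik (-2.04 and -2.06) at the bottom.

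Split by type, the coding genes had 19 of 56 higher and 15 lower between TubB and mock, and 22 higher and 14 lower between LPS_IFNg_TubB and LPS_IFNg. The noncoding RNAs had 5 of 14 higher and 5 lower, then 5 higher and 6 lower. Of the 7 pseudogenes and other RNAs, 2 were higher and none lower, then 2 were higher and 1 lower. The 3 genes without a match had 2 lower, then 3 lower. Among all genes tested 26.3% were higher and 24.9% lower, then 26.2% higher and 25.0% lower. Changes over 2-fold between TubB and mock were called in 7 of the 14 noncoding RNAs (3 higher, with 6530402F18Rik among them, and 4 lower). They were called in 8 of the 56 coding genes (4 higher, 4 lower). The difference between these shares was not tested. The share over all genes tested was not counted, and several of these genes drew most of their counts from one side. By name, 7 of 22 Gm genes were higher and 6 lower, and 19 of 58 Rik genes were higher and 16 lower. The genes called higher, called lower and not called had medians of 14.1, 14.2 and 11.5 RPKM and of 4.0, 5.5 and 4.0 exon blocks.

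Gm8995 had the largest difference. It is typed as other RNA and lies on chromosome 7 (106502153 to 106529202, minus strand, GRCm38.p6) in 4 exon blocks. Its transcript aligned to that of Gvin1, which encodes a very large interferon-inducible GTPase, over 7263 bases with 92.1% identity, and its longest identical stretch was 129 bases. Gm8995 had 3.21 and 3.89 CPM in mock, 3.29 and 2.55 in LPS_IFNg, 132 and 125 in TubB and 145 and 118 in LPS_IFNg_TubB. The groups did not overlap across the compound label and lay together within it. The log2 difference was 5.16 ± 0.17 (SE) between TubB and mock and 5.48 ± 0.18 between LPS_IFNg_TubB and LPS_IFNg, given as a description because the summed count was reached through the high libraries. Gvin1 itself held 13 counts in all and was not tested. The recorded counting command has no option to count multi-mapped reads, and featureCounts leaves such reads out by default. Reads aligned to several such copies were therefore not counted, and the counts rest on reads aligned to a single place.

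6530402F18Rik, a noncoding RNA of 2 exon blocks on chromosome 2 (29245116 to 29252993, minus strand), had the second largest difference. It had 3.07 and 3.17 CPM in mock, 3.13 and 2.38 in LPS_IFNg, 47.2 and 44.4 in TubB and 47.7 and 43.1 in LPS_IFNg_TubB. The 4 high libraries lay close together, far above the 4 low ones. The log2 differences were 3.86 ± 0.21 and 4.03 ± 0.22, a description for the same reason. Its exons overlap those of Ntng2, a netrin-G adhesion protein gene on the same strand, over 6.34% of their length. Ntng2 had 58 counts in all and changed by 3.16 ± 0.81 and 3.29 ± 1.02 (edgeR adjusted p = 0.00174 and 0.008), and its second call was lost without LPS_IFNg replicate 2 (2.39, adjusted p = 0.0929) or LPS_IFNg_TubB replicate 2 (adjusted p = 0.0545). Without LPS_IFNg replicate 1 the second change was 6.49.

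Promoters are printed for 3 genes that were high in the same libraries, to show the sequence at their starts. RefSeq's promoter windows for GRCm38.p6 run from 250 bases before to 50 after a start. Capitals mark a match to the NF-kappaB consensus, searched on both strands. The window of 6530402F18Rik is chr2:29252944-29253243 (minus strand), that of 5430427O19Rik chrX:85870023-85870322 (plus strand), and that of Gm20559 chr6:3346089-3346388 (minus strand, the first of 3 starts a few bases apart).
6530402F18Rik: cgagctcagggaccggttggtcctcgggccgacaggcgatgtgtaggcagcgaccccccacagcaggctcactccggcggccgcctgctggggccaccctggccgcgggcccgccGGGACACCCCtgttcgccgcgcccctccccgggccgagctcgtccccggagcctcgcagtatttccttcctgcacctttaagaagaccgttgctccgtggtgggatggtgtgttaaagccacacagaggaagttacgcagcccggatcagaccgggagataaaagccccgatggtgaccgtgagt
5430427O19Rik: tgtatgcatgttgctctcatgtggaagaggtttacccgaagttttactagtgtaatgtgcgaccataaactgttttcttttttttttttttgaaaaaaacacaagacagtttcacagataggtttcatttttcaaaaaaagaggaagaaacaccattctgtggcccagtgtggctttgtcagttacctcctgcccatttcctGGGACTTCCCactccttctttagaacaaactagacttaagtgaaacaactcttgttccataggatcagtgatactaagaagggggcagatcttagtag
Gm20559: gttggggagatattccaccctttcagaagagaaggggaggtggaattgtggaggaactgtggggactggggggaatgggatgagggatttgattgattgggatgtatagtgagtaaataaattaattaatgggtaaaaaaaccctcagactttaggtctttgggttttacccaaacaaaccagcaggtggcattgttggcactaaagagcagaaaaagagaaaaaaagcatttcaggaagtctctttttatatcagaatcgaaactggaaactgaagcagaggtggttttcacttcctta
The third window holds no match and has no capitals. The first holds a match 135 bases before the start and the second 48 bases before it. Of 77 promoter windows found for 64 of the 80 genes, 5 (6.49%) held an NF-kappaB consensus match, against 4.51% of all 32851 windows. The matches not printed lie in 1110059E24Rik, D430042O09Rik and 2810004N23Rik, the last of which was called lower in both comparisons. Windows of Gm34181, 2310022A10Rik and 4932438A13Rik, which were called higher in both, held none. The core of the interferon-stimulated response element, searched as GAAA and GAAA with any 2 bases between them on both strands, was in 3 (3.90%, against 3.44% of all). A match describes letters only.

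Gm20559, a noncoding RNA on chromosome 6 (3330738 to 3346141, minus strand), had 20.5 and 17 CPM in mock and 23.2 and 17.5 in LPS_IFNg. It had 80.2 and 66.7 CPM in TubB and 80.6 and 75 in LPS_IFNg_TubB, well above every library of the other side. The log2 changes were 1.95 ± 0.15 and 1.93 ± 0.15 (adjusted p = 2.93e-12 and 5.88e-12). The nearest tested gene is Samd9l, an interferon-inducible antiviral factor whose span begins 26116 bases away on the same strand. Samd9l rose by 2.71 ± 0.22 and 2.65 ± 0.23 on the log2 scale (edgeR adjusted p = 2.89e-07 and 4.26e-07).

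Other noncoding RNAs that rose were smaller in size of change. Gm34181 (chromosome 2, 144337403 to 144344664) went from between 14.1 and 18.6 CPM in mock and LPS_IFNg to between 35.8 and 45.1 in TubB and LPS_IFNg_TubB, with log2 changes of 1.29 ± 0.16 and 1.33 ± 0.16. Gm34254 rose by 0.87 ± 0.16 and 0.70 ± 0.17, and Gm46162 by 0.80 ± 0.17 and 0.86 ± 0.17. Gm34254 lies within the span of Pde6b, a rod phosphodiesterase gene on the opposite strand, which changed by 0.77 ± 0.20 and 0.73 ± 0.21. The exons of Gm34254 and Pde6b do not overlap. The neighbours of the other RNAs went the other way: Kat14, nearest to Gm34181, changed by -0.55 ± 0.10 and -0.65 ± 0.10. Ivns1abp, nearest to Gm46162, changed by -1.47 ± 0.16 and -1.39 ± 0.16. All these changes passed the test (largest edgeR adjusted p = 0.00388, for Pde6b). Gm34181 drew most of its counts from TubB and LPS_IFNg_TubB, so its changes are best read as descriptions. Those of Pde6b missed the threshold when TubB replicate 2 (adjusted p = 0.057) or mock replicate 1 (adjusted p = 0.0565) was left out of the first comparison, or LPS_IFNg replicate 2 (adjusted p = 0.0542) of the second.

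Among coding genes, 1110038F14Rik on chromosome 15 rose most. It had 16.3 and 16.3 CPM in mock, 16.1 and 18 in LPS_IFNg, 58.4 and 46.5 in TubB and 50.7 and 43.6 in LPS_IFNg_TubB, with no overlap across the compound label. Its log2 changes were 1.67 ± 0.16 and 1.46 ± 0.16 (adjusted p = 3.79e-10 and 1.09e-08, edgeR). Its exons overlap those of Gm46534 over 5.41% of their length. Most of its counts lay in TubB and LPS_IFNg_TubB, so its changes are best read as descriptions. Rpl8, its nearest neighbour by the rule used here, changed by -0.36 ± 0.07 and -0.26 ± 0.07 (edgeR adjusted p = 3.57e-05 and 0.00205).

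5430427O19Rik is known as Tasl, the adaptor that links endolysosomal Toll-like receptors to the interferon regulatory factor IRF5. On chromosome X (85776968 to 85891499), it had 13.8 and 14.4 CPM in mock, 15.6 and 14.6 in LPS_IFNg, 41.1 and 39.6 in TubB and 37.4 and 45.3 in LPS_IFNg_TubB. All 4 libraries with the compound label lay above the other 4, and the log2 changes were 1.51 ± 0.16 and 1.46 ± 0.17 (adjusted p = 5.05e-09 and 1.59e-08). Gk, the glycerol kinase gene, starts 149 bases away on the opposite strand by the spans in the count table. It changed by 1.35 ± 0.08 and 1.28 ± 0.08 (edgeR adjusted p = 4.91e-15 and 2.58e-14). The RefSeq promoter window printed above belongs to a start inside the gene's span, not to the outermost one facing Gk. The change of 5430427O19Rik is best read as a description, because most of its counts lay in TubB and LPS_IFNg_TubB.

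2310022A10Rik, on chromosome 7 (27553243 to 27582099), starts 14 bases from Pld3, which encodes an endolysosomal nuclease and runs the other way. 2310022A10Rik had between 59.7 and 63.4 CPM in mock and LPS_IFNg and between 127 and 153 in TubB and LPS_IFNg_TubB. Its log2 changes were 1.23 ± 0.10 and 1.15 ± 0.10 (adjusted p = 2.53e-11 and 1.77e-10), beside 1.89 ± 0.08 and 1.88 ± 0.08 for Pld3 (edgeR). In both pairs of facing genes, each gene was called higher in both comparisons.

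4932438A13Rik, also called Tweek or Kiaa1109, encodes a very large bridge-like lipid transfer protein and has 88 exon blocks. It had 31.4 and 27.7 CPM in mock, 33.1 and 25.5 in LPS_IFNg, 65.9 and 72.2 in TubB and 73.2 and 65.8 in LPS_IFNg_TubB, with the 4 libraries of the compound label well above the others. The log2 changes were 1.23 ± 0.13 and 1.24 ± 0.14 (adjusted p = 5.87e-09 and 9.74e-09, edgeR).

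A630001G21Rik belongs to the relatives of Sp100 and Sp110, nuclear body proteins induced by interferon. It had between 24.9 and 29.1 CPM in mock and LPS_IFNg and between 48.0 and 50.3 in TubB and LPS_IFNg_TubB. The log2 changes were 0.89 ± 0.14 and 0.87 ± 0.14 (adjusted p = 2.69e-06 and 5.31e-06). Sp100, whose span lies 7085 bases away, changed by 5.93 ± 0.42 and 5.98 ± 0.43 (edgeR adjusted p = 2.63e-07 and 3.53e-07). Only this 1 of the 8 listed Gm and Rik relatives reached the summed count; 4 of the 8 are in the table, and the other 3 of these had at most 39 counts.

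**Figure D3:**
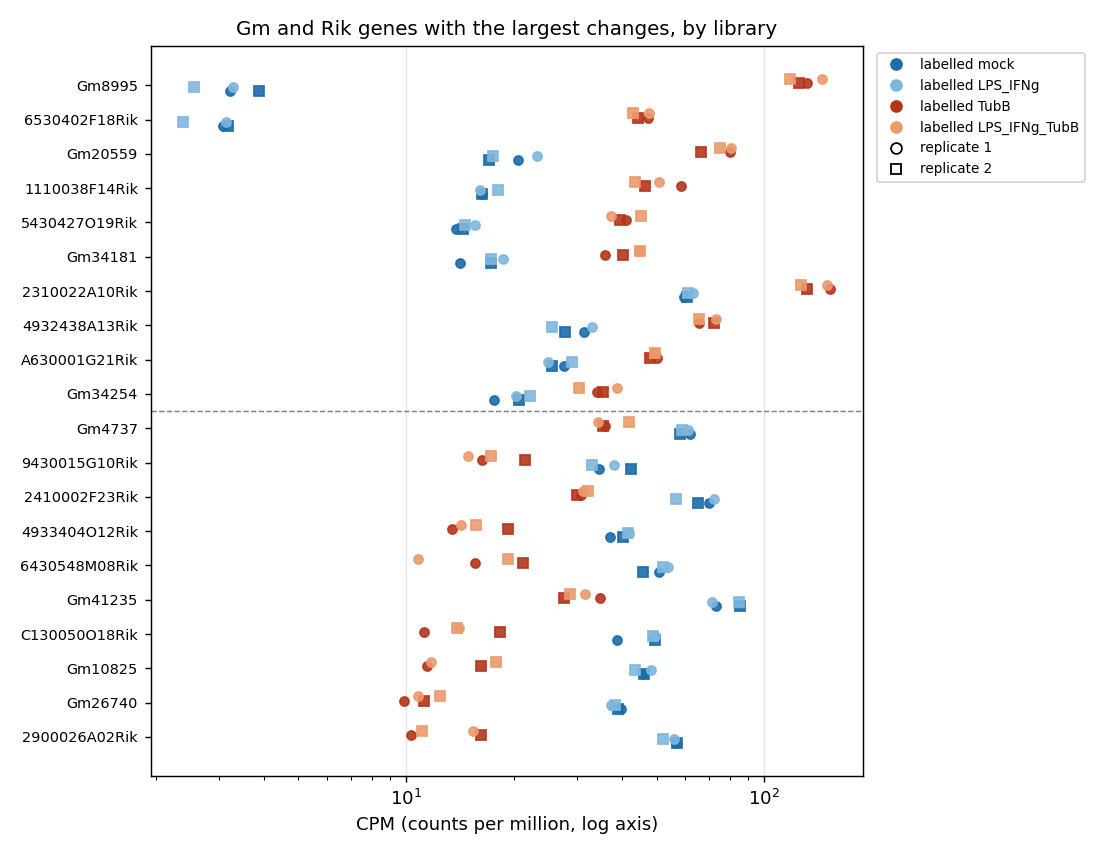
CPM (log axis) in each library for the 10 genes with the largest rises (above the dashed line) and the 10 with the largest falls (below it) between the libraries labelled TubB and mock; colour gives the label and shape the replicate. In each gene shown, the libraries labelled TubB and LPS_IFNg_TubB lie on one side of those labelled mock and LPS_IFNg.

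The largest fall was in 2900026A02Rik (Kiaa1671), a coding gene on chromosome 5 (113086323 to 113221332). It had 56.7 and 57.0 CPM in mock, 56.0 and 52.2 in LPS_IFNg, 10.3 and 16.2 in TubB and 15.4 and 11.1 in LPS_IFNg_TubB. The log2 changes were -2.04 ± 0.17 and -2.06 ± 0.18 (adjusted p = 3.13e-11 and 8.27e-11). Its neighbour Sgsm1 changed by -0.89 ± 0.08 and -1.08 ± 0.08 (edgeR adjusted p = 1.8e-10 and 4.74e-12). The change of 2900026A02Rik is best read as a description, because most of its counts lay in mock and LPS_IFNg.

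The noncoding RNAs Gm26740 and Gm10825 lie on chromosome 10 among genes for ligands of the NKG2D receptor, by which natural killer cells recognise stressed cells. The span of Gm26740 covers Raet1e and H60b, and Raet1d lies between Gm26740 and Gm10825. Gm26740 (22186285 to 22306382) had 39.8 and 39.1 CPM in mock, 37.4 and 38.2 in LPS_IFNg, 9.88 and 11.2 in TubB and 10.8 and 12.4 in LPS_IFNg_TubB. It fell by 1.89 ± 0.17 and 1.69 ± 0.18 on the log2 scale. Gm10825 (22402813 to 22407470) had between 43.5 and 48.4 CPM in mock and LPS_IFNg and between 11.4 and 17.8 in the others, and fell by 1.69 ± 0.18 and 1.60 ± 0.18. Adjusted p-values of both genes were at most 1.45e-08 (edgeR). Both drew most of their counts from mock and LPS_IFNg, so their changes are best read as descriptions.

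Of the named ligand genes nearest to them, Raet1d had between 157 and 177 CPM in mock and LPS_IFNg and between 58.2 and 71.6 in the others, with log2 changes of -1.35 ± 0.10 and -1.39 ± 0.10. H60b, inside the span of Gm26740 on the opposite strand, had between 5.78 and 10.6 CPM, and its changes of -0.45 ± 0.30 and -0.13 ± 0.30 did not pass the test (edgeR adjusted p = 0.209 and 0.747). The Gm10825 transcript matches that of Gm26581 over its whole length with 99.6% identity. Gm26581 comes from the GENCODE transcripts and has no row in the counts, so its level cannot be given. Whether reads from its sequence affected the counts of Gm10825 was not tested.

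Gm41235, a noncoding RNA on chromosome 14 (103042474 to 103048090, minus strand), lies across the start of Acod1, the gene for the enzyme that makes itaconate in activated macrophages, on the opposite strand. Gm41235 had 73.5 and 85.8 CPM in mock, 71.4 and 84.9 in LPS_IFNg, 34.7 and 27.6 in TubB and 31.5 and 28.6 in LPS_IFNg_TubB. It fell by 1.38 ± 0.13 and 1.39 ± 0.14 on the log2 scale (adjusted p = 7.12e-10 and 1.25e-09). Acod1 had between 689 and 738 CPM in the libraries labelled mock and LPS_IFNg and between 7432 and 7836 in the others, and rose by 3.46 ± 0.07 and 3.42 ± 0.07 (edgeR adjusted p = 1.06e-25 and 1.51e-25). The spans overlap and the start sites are 1078 bases apart, but no exon of one overlaps an exon of the other. Gm41235 was called lower and Acod1 higher in both comparisons.

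C130050O18Rik, a coding gene next to Gpr146 on chromosome 5, had 38.9 and 49.6 CPM in mock, 49.4 and 48.8 in LPS_IFNg, 11.2 and 18.3 in TubB and 14 and 13.9 in LPS_IFNg_TubB. Its log2 changes were -1.52 ± 0.18 and -1.81 ± 0.19 (adjusted p = 3.75e-08 and 3.78e-09). Gpr146, a receptor gene, changed the other way by 1.25 ± 0.24 and 1.36 ± 0.23 (edgeR adjusted p = 5e-05 and 1.53e-05). The change of C130050O18Rik is best read as a description, because most of its counts lay in mock and LPS_IFNg.

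6430548M08Rik (Kiaa0513) had between 45.9 and 53.8 CPM in mock and LPS_IFNg and 15.6, 21.2, 10.8 and 19.3 in the 4 libraries with the compound label, with log2 changes of -1.36 ± 0.18 and -1.77 ± 0.19. The noncoding RNA 4933404O12Rik changed by -1.20 ± 0.17 and -1.47 ± 0.17, and the coding genes 2410002F23Rik by -1.16 ± 0.13 and -1.02 ± 0.14 and 9430015G10Rik by -1.0 ± 0.17 and -1.13 ± 0.18. In each of these the libraries with and without the compound label did not overlap, and the largest adjusted p was 1.07e-05 (edgeR). These genes drew most of their counts from mock and LPS_IFNg, so their changes are best read as descriptions. Ift22, nearest to 4933404O12Rik, changed by 0.57 ± 0.16 and 0.29 ± 0.17 (edgeR adjusted p = 0.00400 and 0.152). Josd2, Zdhhc7 and Agrn, nearest to the others, were not called in the first comparison. Of these only Agrn was called in the second (0.92 ± 0.37, edgeR adjusted p = 0.0391). Exons of 2410002F23Rik overlap those of Acp4 on the opposite strand over 12.6% of their length.

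4930579G24Rik was less steady between replicates. It had 27.1 and 25.2 CPM in mock, 32.9 and 28.0 in LPS_IFNg, 14.3 and 22.9 in TubB and 16.3 and 14.2 in LPS_IFNg_TubB. The change was -0.45 ± 0.19 (adjusted p = 0.0464) between TubB and mock and -1.01 ± 0.20 (adjusted p = 9.81e-05) between LPS_IFNg_TubB and LPS_IFNg (edgeR), and the interaction of -0.56 had an unadjusted p of 0.0507. Leaving out TubB replicate 1 ended the first call (-0.19, adjusted p = 0.473), as did leaving out either mock or either LPS_IFNg library, while the change was -0.86 without TubB replicate 2.

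Gm46620, which held the most counts of the 80 genes, fell in both comparisons. It had 3239.5 and 3139 CPM in mock, 3463 and 3043 in LPS_IFNg, 2135 and 2415 in TubB and 2162 and 2220.1 in LPS_IFNg_TubB. Its log2 changes were -0.49 ± 0.07 and -0.57 ± 0.07 (adjusted p = 1.57e-06 and 1.16e-07). Gm41885 had between 464 and 536 CPM in mock and LPS_IFNg and between 309 and 348 in the others, with changes of -0.56 ± 0.07 and -0.55 ± 0.07 (edgeR adjusted p = 1.94e-07 and 4.13e-07). 2900097C17Rik, with between 109.7 and 147 CPM, changed by -0.09 ± 0.08 and -0.34 ± 0.09 (edgeR adjusted p = 0.418 and 0.00162).

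The steadiest genes over all 8 libraries were Gm15772, with a range of 0.14 in log2 CPM, Gm42048 (0.22), 1700017B05Rik (0.23), 2610507B11Rik (0.24) and Gm2423 (0.26). They were chosen by this range, so a test that they did not pass adds nothing to it. Gm15772 and Gm2423 are near-identical copies of Rpl26 and Ywhaq, and their counts may not be those of the copy alone. Gm42048 had between 414 and 483 CPM, and its changes of 0.00 ± 0.08 and 0.01 ± 0.08 did not pass the test (edgeR adjusted p = 0.992 and 0.932). 2610507B11Rik (Kiaa0100), a bridge-like lipid transfer protein as 4932438A13Rik is, had between 419 and 494 CPM. Its changes of 0.11 ± 0.07 and 0.09 ± 0.07 did not pass (edgeR adjusted p = 0.200 and 0.331), unlike those of 4932438A13Rik, which was named for its rise. The difference between these genes was not tested. 1700017B05Rik changed by -0.07 ± 0.08 and -0.20 ± 0.08 (edgeR adjusted p = 0.494 and 0.031), and the second call was lost without any 1 of the 4 libraries compared.

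Processed copies and close paralogs made up part of the set. A GENCODE transcript was found for 71 genes, and 32 of these matched a transcript of another gene with at least 85% identity over at least 200 bases. In 9 genes the match covered at least 90% of the transcript: Gm15772, Gm12191, Gm1821, Gm2423, Gm4737, Gm9855, Gm8995, Gm10825 and 4833439L19Rik. Of these, 2 were higher and 2 lower between TubB and mock, and 2 were higher and 3 lower between LPS_IFNg_TubB and LPS_IFNg, with Gm8995 among the higher ones. Among all genes tested 26.3% were higher and 24.9% lower in the first comparison, and 26.2 and 25.0% in the second. The first 6 of the 9 genes match a named parent with 98.5 to 99.7% identity.

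The sequences below show how little separates a copy from its parent. Each line is a window of 41 bases inside the parent's coding sequence, capitals mark the bases that differ, and positions count from 1 at the 5′ end of the parent transcript (GENCODE vM21, GRCm38).
Rpl26: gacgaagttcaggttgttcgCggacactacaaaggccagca
Gm15772: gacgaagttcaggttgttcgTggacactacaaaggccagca
Ubb: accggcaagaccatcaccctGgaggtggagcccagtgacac
Gm1821: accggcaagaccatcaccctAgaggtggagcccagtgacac
Ahcy: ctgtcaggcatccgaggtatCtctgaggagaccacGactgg
Gm4737: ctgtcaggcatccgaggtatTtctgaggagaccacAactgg
The substitution at the centre of each window is C224T in Gm15772, G704A in Gm1821 and C564T in Gm4737, with the parent's base first. The longest stretch without a difference was 176 bases between Gm15772 and Rpl26, 161 between Gm1821 and Ubb and 575 between Gm4737 and Ahcy. A read pair that lies inside such a stretch fits both genes.

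Gm15772, a copy of the ribosomal protein gene Rpl26 on chromosome 5 (3236390 to 3236928), aligned with 436 of 438 bases identical, and RefSeq lists Rpl26 among its older names. It had between 232 and 256 CPM in every library, against between 32.4 and 44.9 CPM for Rpl26. Per kilobase the copy stood at 454 RPKM and the parent at 75.1, and the copy took between 84.6 and 88.5% of the counts of the pair. Gm15772 changed by -0.06 ± 0.07 and -0.01 ± 0.08 and Rpl26 by -0.03 ± 0.13 and 0.19 ± 0.14, none of which passed the test (edgeR adjusted p from 0.265 to 0.888). Gm12191, a copy of Rpl30, took between 32.6 and 38.7% of its pair's counts, and neither gene passed the test.

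Copies and parents gave the following changes where the test was passed. Gm1821, a copy of the ubiquitin gene Ubb now named Ubb-ps, had 32.0 and 35.3 CPM in mock, 28.5 and 40.3 in LPS_IFNg, 61.7 and 57.2 in TubB and 58.5 and 50.6 in LPS_IFNg_TubB. Its log2 changes were 0.82 ± 0.14 and 0.66 ± 0.15 (adjusted p = 1.71e-05 and 0.000383), beside 0.74 ± 0.07 and 0.80 ± 0.08 for Ubb (edgeR). Without LPS_IFNg replicate 1, the second change of Gm1821 was 0.43 (adjusted p = 0.0406). The copy held between 9.60 and 12.4% of the pair's counts.

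Gm4737, typed as coding although it has 1 exon, copies Ahcy, the gene for S-adenosylhomocysteine hydrolase. It had between 58.3 and 62.1 CPM in mock and LPS_IFNg and between 34.4 and 42.0 in TubB and LPS_IFNg_TubB. The log2 changes were -0.76 ± 0.12 and -0.64 ± 0.13 (adjusted p = 8.30e-06 and 0.000105), beside -0.76 ± 0.12 and -0.73 ± 0.12 for Ahcy (edgeR adjusted p = 2.62e-06 and 6.64e-06). The copy held between 39.6 and 43.9% of the pair's counts. Whether the copy or its parent was transcribed cannot be told apart from these counts.

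Gm2423, a copy of the 14-3-3 gene Ywhaq, changed by -0.18 ± 0.13 and 0.10 ± 0.14 and did not pass the test (edgeR adjusted p = 0.283 and 0.592), beside -0.26 ± 0.09 and -0.24 ± 0.09 for Ywhaq (edgeR adjusted p = 0.0214 and 0.0331). The first call of Ywhaq was lost without mock replicate 1 or TubB replicate 1 (adjusted p = 0.176 and 0.0861), and the second without LPS_IFNg replicate 1 (adjusted p = 0.256) or LPS_IFNg_TubB replicate 1 (-0.09, adjusted p = 0.516); without LPS_IFNg_TubB replicate 2 it was -0.42. Gm9855, now Tdg-ps2, copies Tdg, the gene for thymine DNA glycosylase, and held between 64.2 and 71.6% of the pair's counts. It changed by -0.25 ± 0.12 and -0.30 ± 0.12 (adjusted p = 0.0675 and 0.0375; the second between 0.0696 and 0.170 without any 1 of the 4 libraries compared), beside -0.34 ± 0.16 and -0.17 ± 0.17 for Tdg (edgeR adjusted p = 0.0745 and 0.430). Differences between copy and parent were not tested.

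**Figure D4:**
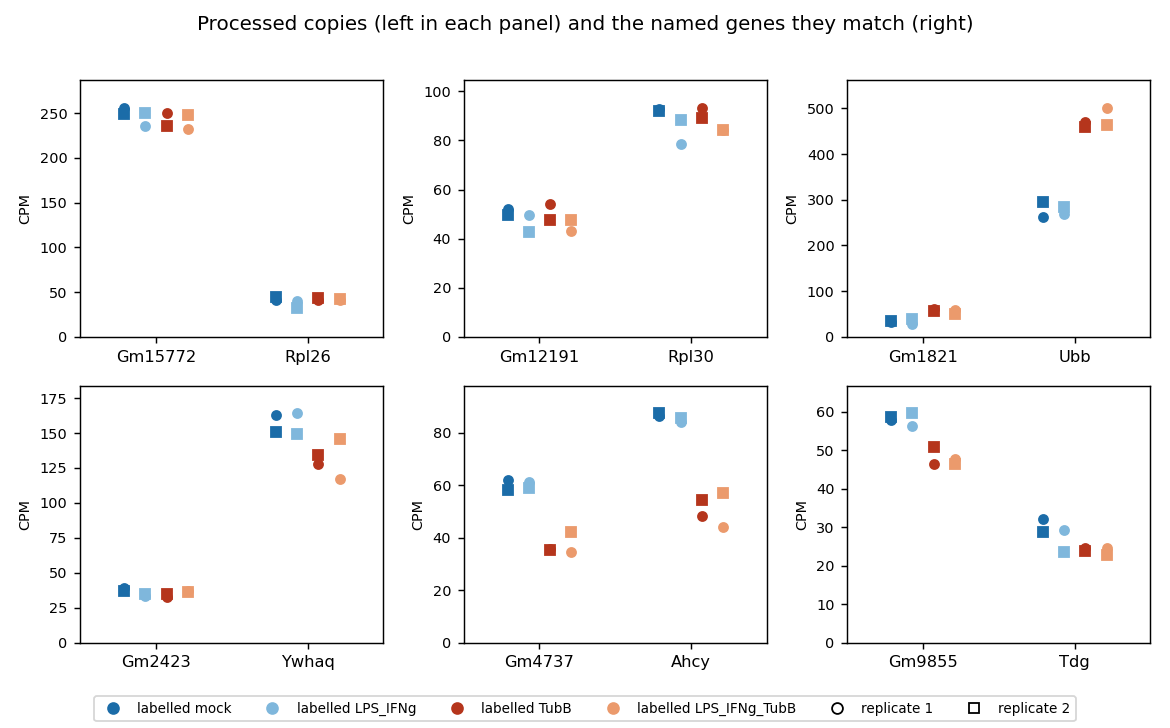
CPM in each library for 6 processed copies and the named genes they match, each panel on its own axis from 0; colour gives the label and shape the replicate. Gm15772 and Gm9855 lie above their parents, the other 4 below, and Gm1821 with Ubb and Gm4737 with Ahcy differ across the compound label in the same direction.

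A list of small mitochondrial and secretory pathway proteins was the only list with several of the 80 genes: 5 of its 8 genes are in the table, and all 5 are among the 80. Between TubB and mock 2 were higher and 2 lower, beside 26.3% higher and 24.9% lower of all genes tested. Between LPS_IFNg_TubB and LPS_IFNg 3 were higher, beside 26.2% higher and 25.0% lower of all genes tested. 1810037I17Rik (Aln), a micropeptide that binds the calcium pump SERCA, went from between 60.4 and 66.6 CPM in mock and LPS_IFNg to between 81.3 and 93.6, with log2 changes of 0.45 ± 0.11 and 0.43 ± 0.11 (edgeR adjusted p = 0.000776 and 0.00168). 1110008P14Rik changed by 0.66 ± 0.11 and 0.58 ± 0.12 (edgeR adjusted p = 1.23e-05 and 0.000105). 1810058I24Rik (Stmp1), a mitochondrial micropeptide, changed by 0.23 ± 0.13 and 0.56 ± 0.13 (edgeR adjusted p = 0.131 and 0.000703).

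1110004F10Rik (Smap, a small acidic protein) changed by -0.35 ± 0.08 and -0.17 ± 0.08 (edgeR adjusted p = 0.000602 and 0.0968). 0610012G03Rik had 33.1 and 33.2 CPM in mock, 35.1 and 29.1 in LPS_IFNg, 26.1 and 24.1 in TubB and 33.3 and 36.3 in LPS_IFNg_TubB, so only TubB stood lower. Its changes were -0.41 ± 0.15 and 0.12 ± 0.15 (edgeR adjusted p = 0.0247 and 0.517). Its first call did not survive leaving out either mock library (adjusted p = 0.0854 and 0.0857) or TubB replicate 2 (adjusted p = 0.164).

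Among other abundant coding genes, 9530068E07Rik (Kct2, a transmembrane protein) rose by 0.24 ± 0.08 and 0.20 ± 0.08 (edgeR adjusted p = 0.0105 and 0.0371). The first call was lost without mock replicate 1 and the second without any 1 of the libraries labelled mock, LPS_IFNg or LPS_IFNg_TubB. E330009J07Rik, now Dennd11, a gene of the DENN domain family, rose by 0.59 ± 0.10 and 0.30 ± 0.10 (edgeR adjusted p = 1.14e-05 and 0.0131), and the second call was lost without LPS_IFNg replicate 1 (adjusted p = 0.126) or LPS_IFNg_TubB replicate 1 (adjusted p = 0.0595). 1110059E24Rik, at the edge of the rule, rose by 0.73 ± 0.18 and 0.56 ± 0.19 (edgeR adjusted p = 0.000861 and 0.0122), and the second change was 0.37 without LPS_IFNg replicate 1 (adjusted p = 0.193).

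Lists of other Gm and Rik genes had no gene among the 80. Of 9 listed relatives of interferon-inducible GTPases, 8 are in the table and 5 were tested. All 5 were higher in both comparisons, beside 26.3 and 26.2% of all genes tested, but none reached the summed count. Closest to it were Gm4951 with 973 counts and Gm4070 with 925. Gm4951, Gm4841 and F830016B08Rik held 0 counts in every library labelled mock or LPS_IFNg, and Gm4070 between 2 and 13. They passed the filter on low counts through the libraries in which they are high, so their calls are no result. Listed noncoding RNAs described in macrophages or tumours had 4 of 10 tested, with 2 higher and 1 lower between TubB and mock and 2 higher between LPS_IFNg_TubB and LPS_IFNg. The shares over all genes tested were 26.3% higher and 24.9% lower, then 26.2% higher and 25.0% lower.

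Neighbours were compared for all 80 genes, taking the nearest tested gene with another kind of name, at a median gap of 5261 bases. Of the 26 genes higher in TubB than in mock, 10 had a neighbour that was higher, 7 one that was lower and 9 one that was not called. Of the 22 lower genes, 4 had a neighbour that was higher, 4 one that was lower and 14 one that was not called. Of the 32 genes not called, 12 had a neighbour that was higher and 8 one that was lower. Among all genes tested 26.3% were higher and 24.9% lower. Between LPS_IFNg_TubB and LPS_IFNg, the 29 higher genes had 10 neighbours that were higher and 10 that were lower, and the 24 lower genes had 6 and 4. Of all genes tested 26.2% were higher and 25.0% lower there. Gm8995 and its neighbour Mrpl17, 691066 bases away, changed by 5.16 and -0.56.

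**Figure D5:**
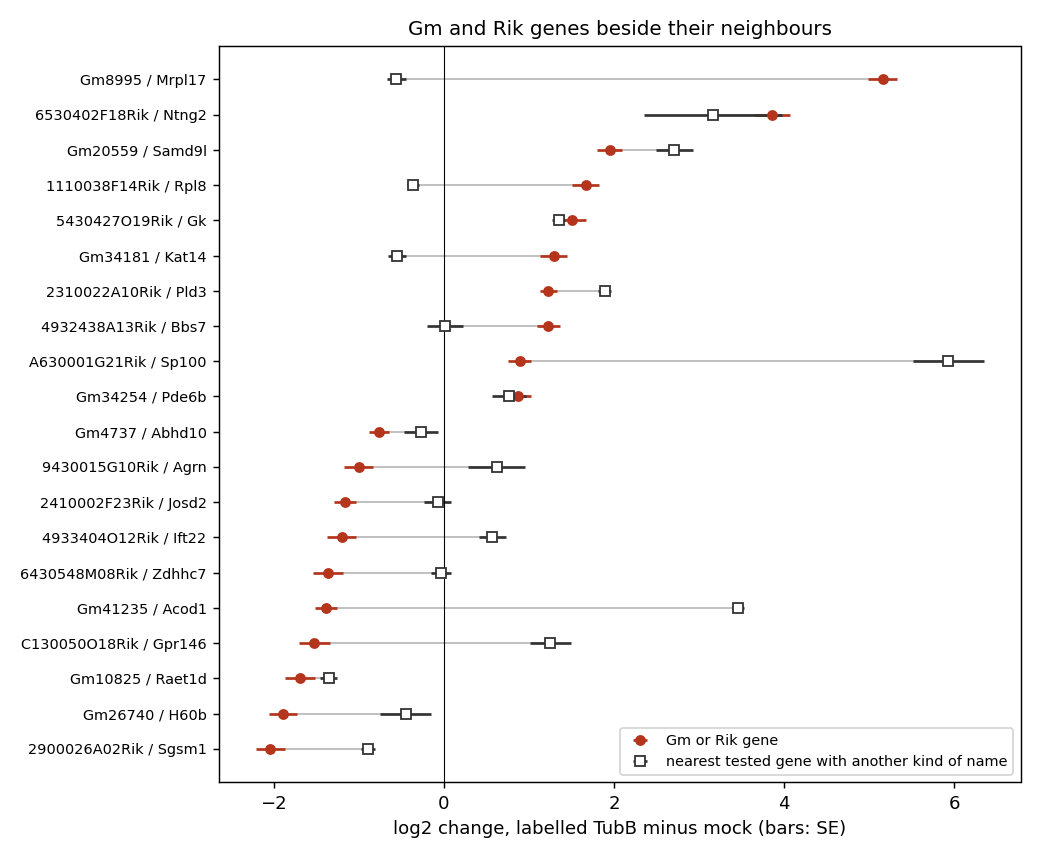
Log2 change between the libraries labelled TubB and mock, with SE bars, for the 20 genes with the largest rises and falls (filled circles) and for the nearest tested gene with another kind of name (open squares). Some neighbours lie on the same side as the gene, such as those of 6530402F18Rik, Gm20559, 5430427O19Rik and 2310022A10Rik. Others lie on the opposite side, such as those of Gm41235, C130050O18Rik, Gm34181, 1110038F14Rik and 4933404O12Rik.

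Across the stimulus label none of the 80 genes was called. Between LPS_IFNg and mock no gene of the 80 was called (edgeR), beside 0% of all 11081 genes tested, and 4 of the 80 had an unadjusted p under 0.05. Both LPS_IFNg libraries lay above both mock libraries in 18 of the 80 genes and below them in 7, without passing the test. For LPS_IFNg_TubB against TubB these counts were 14 and 15. With 2 libraries per group, such orders are frequent without any difference. Their share over all genes tested was not counted, so no lean is read from them. Between LPS_IFNg_TubB and TubB none was called, beside 0% of all genes tested, and 1 had an unadjusted p under 0.05, namely 0610012G03Rik (0.48, unadjusted p = 0.00398, adjusted p = 0.999). The interaction called none, beside 0% of all genes tested, with 3 under an unadjusted p of 0.05. DESeq2 and limma called 0 of the 80 in each of these comparisons. Log2 changes of the 80 genes lay between -0.36 and 0.32 for LPS_IFNg minus mock and between -0.41 and 0.48 for LPS_IFNg_TubB minus TubB.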

How the data were processed

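RNA of RAW264.7 cells was sequenced from poly(A)-selected, non-directional libraries, per the labels' protocols. The authors deposited raw counts per gene, made with STAR 2.7.0 per the submitters' processing notes and with featureCounts 2.0.1 per the file headers (paired reads, exons, RefSeq of GRCm38.p6, no option for strand or multi-mapped reads). They also deposited regularised log2 values (rlog), used as an alternative. RPKM was computed from the counts and the exon length in the same table. Columns were assigned by the library number in the labels.

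The counts of all 8 libraries were fitted with edgeR 4.0.16 (R 4.3.3): TMM, filterByExpr by group (minimum count 10, minimum total 15), robust quasi-likelihood, group as the only term, Benjamini-Hochberg adjustment. SE is the log2 change divided by the root of F. Depth was 4767894 to 8413834 counts per library. Without molecular identifiers, reads may repeat a molecule. The fit was tested on simulated counts. Transcripts were compared with blastn 2.17.0. Of 3 promoter motifs searched, 1 is not reported here. Neighbours with Gm, Rik or LOC names were passed over. Alternatives were RLE factors, no filter, DESeq2 1.42.0, limma 3.58.1 on rlog, compared groups only, the replicate number as a block and leaving out each library.

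The members and lists were chosen with earlier results of these data known. Named genes were the 10 largest rises and falls per comparison among called genes without overlap between libraries (for the interaction, the 5 smallest p), the 10 highest in RPKM, the 5 steadiest, the genes of the lists and the 3 on each side of the summed count. Genes outside this rule (neighbours, parents of copies and Gm9855) were named for their place or match after their values were seen.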

Additional observations from a re-analysis of the deposited data

How the results depend on the processing

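Counts of called genes stayed within 1.5 times the reported ones under every alternative run. Between TubB and mock, leaving out 1 library gave 23 to 27 higher and 15 to 22 lower genes (15 without either mock library), and DESeq2 gave 25 and 15. Between LPS_IFNg_TubB and LPS_IFNg, leaving out 1 library gave 23 to 29 higher and 20 to 25 lower, and DESeq2 gave 23 and 19. The comparisons of LPS_IFNg with mock and of LPS_IFNg_TubB with TubB and the interaction gave 0 in all alternatives run for them. The replicate number as a block gave 27 higher and 23 lower in the first comparison and 29 and 25 in the second, and it ended 0 calls of named genes. For the labels the libraries share only a number. Deviations of same-numbered libraries correlated across all genes with r = 0.085 (mock and LPS_IFNg), 0.15 (TubB and LPS_IFNg_TubB), -0.013 (mock and TubB) and 0.021 (LPS_IFNg and LPS_IFNg_TubB), and across the 80 genes with 0.201, 0.223, 0.173 and 0.054. Same-numbered libraries across the stimulus label differed by a mean chi-square per gene of 1.93 to 2.34, against 2.60 to 4.86 between replicates. Of 124 tests of named genes (2 comparisons each), 9 lost their call under DESeq2: both of Ywhaq, 4930579G24Rik and 0610012G03Rik in the first comparison, and 1110059E24Rik, 1700017B05Rik, 9530068E07Rik, E330009J07Rik and Gm9855 in the second. RLE factors and the compared groups each ended 1 call (4930579G24Rik, first comparison), no count filter ended 3 (1700017B05Rik, 9530068E07Rik and Gm9855, second comparison) and rlog 0; no direction reversed. On the rlog values Gm8995 changed by 2.90 and 2.97 and 6530402F18Rik by 2.04 and 2.06, the scale being shrunken by its construction. The 2 libraries per group and their depth limit how small a change can be called.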
